A study of Mus musculus with 9 samples.

Results

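The liver expression of 10 genes that mark recruited and lipid-associated macrophages was examined in mice fed a normal diet (ND) or a high-fat diet (HFD), with or without a polymethoxyflavone-rich fraction (PRF) of Jinkyool (Citrus sunki) leaf. The genes, Ccr2, Cx3cr1, Ly6c2, Itgax, Trem2, Gpnmb, Spp1, Lgals3, Cd9 and Cd63, were chosen by name, with the condition that a gene be above 0 in at least 1 liver. All 10 met it, out of 23183 gene symbols in the tables, of which 16889 were above 0 in at least 1 liver. RNA-Seq was done on the livers of 9 male C57BL/6J mice, labeled as postnatal day 100, with 1 library per mouse. The ND group (mice 6, 7 and 9) received a diet with 14% fat for 10 weeks, and the HFD group (mice 1, 2 and 3) a diet with 60% fat for 10 weeks. The PRF 50 group (mice 3, 9 and 10) received the 60% fat diet for 10 weeks and, over its last 5 weeks, a daily PRF dose of 50 mg/kg. The mouse numbers name animals within a group and pair no mice between groups.

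Monocytes leave the blood and enter the liver under the control of chemokine receptors, and there they can become macrophages beside the resident Kupffer cells. In fatty liver and in obese adipose tissue, part of these recruited cells take on a lipid-associated state, in which the lipid-binding receptor Trem2 and genes for lysosomal, secreted and tetraspanin proteins are expressed. Several of these genes are not limited to macrophages, and Spp1, Cd9, Cd63 and Lgals3 are also known from bile duct and other cells.

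The values are given as log2(FPKM + 1), where FPKM is the number of fragments scaled by transcript length and by library size. Because FPKM is scaled by transcript length, levels can be compared between genes. A difference on this scale understates the change of a gene near or below 1 FPKM. A listed value of 0 does not show that a gene was silent, since albumin (Alb), a main product of hepatocytes, is listed at 0 in all 9 livers. The other hepatocyte markers were high, led by Apoa1 and Ttr with means of 9561 and 5392 FPKM over the 9 livers.

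The 10 genes differed widely in level. Spp1 had the highest mean over the 9 livers (28.8 FPKM), followed by Cd9 (12.9 FPKM), Cd63 (5.36 FPKM), Lgals3 (4.38 FPKM) and Ly6c2 (1.30 FPKM). The other 5 genes had means below 1 FPKM, namely Ccr2 (0.672 FPKM), Trem2 (0.579 FPKM), Cx3cr1 (0.211 FPKM), Itgax (0.188 FPKM) and Gpnmb (0.0645 FPKM). Spp1 alone made up 52.8% of the summed FPKM of the 10 genes. The mean of Spp1 was above that of 88.2% of all genes detected in at least 1 liver, and the mean of Gpnmb above that of 18.5%. The genes that define the lipid-associated state most narrowly, Trem2 and Gpnmb, thus had low values in these livers, while most of the summed level came from genes with known expression in other liver cells.

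Depth was estimated from the lowest values, which step by the value of 1 fragment. Relative to HFD mouse 1, the depths were 1.04, 1.14 and 1.10 in ND mice 6, 7 and 9, 1.15 and 1.58 in HFD mice 2 and 3, and 0.984, 1.49 and 0.963 in PRF 50 mice 3, 9 and 10. Divided by the step and multiplied by the length of the principal transcript, the Spp1 values corresponded to about 390.2 to 725.5 fragments per liver. Cd9 rested on about 109.1 to 308.5 fragments, Lgals3 on 37.7 to 134.0 and Cd63 on 50.2 to 104.8. Ccr2, whose transcript is long, had about 24.3 to 89.0 fragments in spite of its low FPKM. Trem2 had at most 13.7 fragments in any liver, Gpnmb 10.1, Cx3cr1 19.4, Itgax 20.1 and Ly6c2 30.2. At such numbers counting error adds to the spread between mice. These estimates are approximate because the transcripts used by the authors for each gene are not given in the sources used here.

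**Figure D1:**
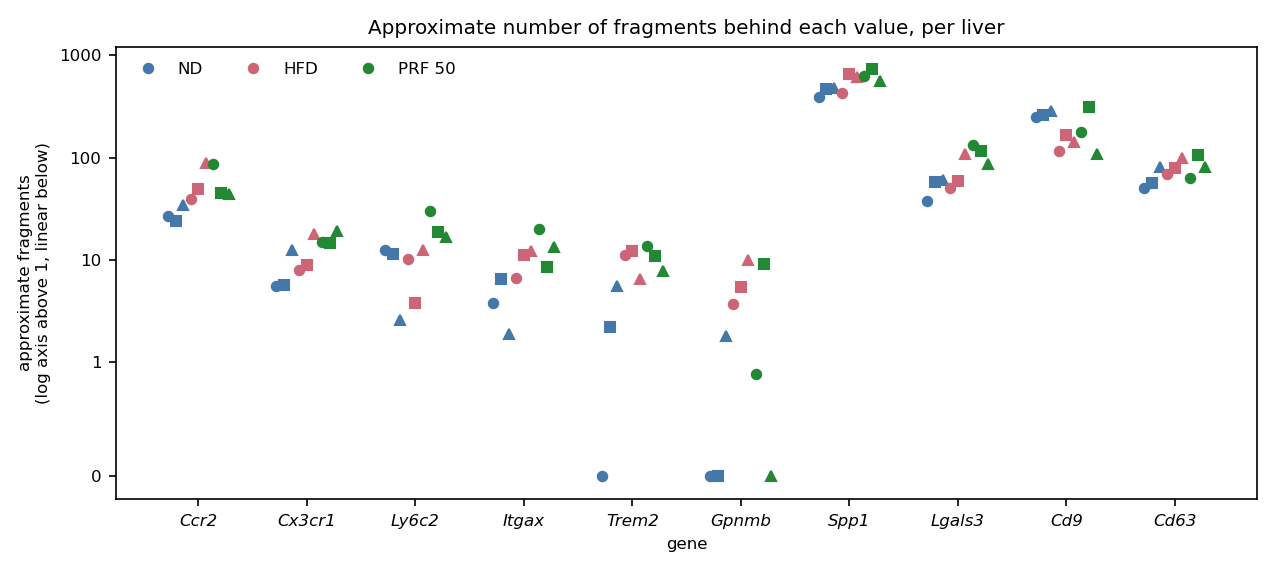
Approximate number of sequenced fragments behind each value (vertical axis, logarithmic above 1 and linear below) for each of the 10 genes, with 1 point per liver, colored by group, and the shapes for the lower, middle and higher mouse number of a group. Spp1 lay at about 390.2 to 725.5 fragments, whereas no liver had more than 13.7 for Trem2 or 10.1 for Gpnmb.

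Start sites of 5 of the genes are shown, those of Cd9, Lgals3, Ly6c2 and Spp1, on which the comparisons turn, and that of Trem2, which marks the lipid-associated state. The 300-base windows are those of RefSeq on GRCm38.p6, from 250 bases before to 50 bases after the annotated start, and all 10 genes were found there. Lower case is used except for matches to 3 motifs, searched on both strands, namely CACGTG (bound by MITF and TFEB, regulators of lysosomal genes), GAGGAAGT (bound by the macrophage factor PU.1) and TGANTCA (bound by AP-1). Capitals mark GAGGAAGT in Spp1 and Ly6c2 and TGANTCA in Trem2.
Cd9, chr6:125494711-125495010, minus strand: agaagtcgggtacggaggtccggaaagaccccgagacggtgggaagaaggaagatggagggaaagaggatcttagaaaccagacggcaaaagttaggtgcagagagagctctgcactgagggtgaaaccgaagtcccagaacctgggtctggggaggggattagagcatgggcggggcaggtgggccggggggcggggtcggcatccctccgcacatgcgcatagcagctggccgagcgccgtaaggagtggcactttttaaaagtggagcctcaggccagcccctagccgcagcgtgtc
Lgals3, chr14:47373610-47373909, plus strand: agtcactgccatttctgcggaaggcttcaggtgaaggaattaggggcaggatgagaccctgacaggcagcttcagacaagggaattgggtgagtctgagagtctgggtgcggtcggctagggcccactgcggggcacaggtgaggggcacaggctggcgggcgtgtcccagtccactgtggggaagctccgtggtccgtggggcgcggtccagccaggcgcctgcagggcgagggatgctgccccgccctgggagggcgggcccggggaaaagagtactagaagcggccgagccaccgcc
Ly6c2, chr15:75111922-75112221, minus strand: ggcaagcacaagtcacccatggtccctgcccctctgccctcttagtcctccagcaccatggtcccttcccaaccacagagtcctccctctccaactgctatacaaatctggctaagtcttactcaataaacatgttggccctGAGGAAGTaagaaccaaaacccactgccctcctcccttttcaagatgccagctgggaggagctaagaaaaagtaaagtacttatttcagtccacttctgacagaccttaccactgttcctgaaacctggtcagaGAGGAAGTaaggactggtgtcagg
Spp1, chr5:104434861-104435160, plus strand: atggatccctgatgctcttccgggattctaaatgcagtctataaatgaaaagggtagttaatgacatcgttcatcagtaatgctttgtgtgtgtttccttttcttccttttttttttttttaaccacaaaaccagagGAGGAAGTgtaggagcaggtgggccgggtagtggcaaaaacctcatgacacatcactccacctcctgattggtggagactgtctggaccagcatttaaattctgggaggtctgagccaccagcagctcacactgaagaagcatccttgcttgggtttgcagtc
Trem2, chr17:48346151-48346450, plus strand: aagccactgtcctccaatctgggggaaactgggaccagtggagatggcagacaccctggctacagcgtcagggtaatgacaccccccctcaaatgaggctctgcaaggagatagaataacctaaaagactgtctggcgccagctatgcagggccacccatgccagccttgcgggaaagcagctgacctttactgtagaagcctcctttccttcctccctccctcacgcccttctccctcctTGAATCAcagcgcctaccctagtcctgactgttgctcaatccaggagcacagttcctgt

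GAGGAAGT was present 2 times in the Ly6c2 window shown and 1 time in that of Spp1, and TGANTCA 1 time each in Trem2, Gpnmb and Itgax. CACGTG was in none of the windows of the 10 genes. Of 32544 promoter windows in the same table, 3.11% held GAGGAAGT, 7.79% TGANTCA and 7.17% CACGTG. The windows of Cd9, Lgals3, Cd63, Ccr2 and Cx3cr1 held none of the 3 motifs. Spp1 and Ly6c2 each have a further annotated start, without a match for Spp1 and with the same 2 matches, shifted, for Ly6c2. A match is a description of the letters, and binding of a factor was not measured.

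Ccr2 (chr9:124101950-124113557) encodes the receptor for Ccl2 that brings monocytes out of the bone marrow and into inflamed tissue. Its values were 0.50, 0.42 and 0.59 in ND mice 6, 7 and 9, 0.70, 0.75 and 0.92 in HFD mice 1, 2 and 3, and 1.25, 0.57 and 0.79 in PRF 50 mice 3, 9 and 10. The 3 HFD values lay above the 3 ND values, while the PRF 50 group overlapped the ND mice through mouse 9 and the HFD mice through mouse 10. Cx3cr1 (chr9:119901616-120069879), the receptor for Cx3cl1 on patrolling monocytes and some tissue macrophages, was 0.15, 0.14 and 0.30 in the ND mice, 0.22, 0.21 and 0.30 in the HFD mice, and 0.39, 0.26 and 0.49 in the PRF 50 mice. No 2 groups were apart for Cx3cr1, and the highest value was that of PRF 50 mouse 10. In GENCODE M21 the annotated span of Cx3cr1 overlaps 9 other genes, 6 of them on the other strand, so its low value is uncertain.

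Ly6c2 (chr15:75108158-75111970) encodes a surface protein anchored in the membrane of inflammatory monocytes. It was 1.21, 1.07 and 0.33 in ND mice 6, 7 and 9, 1.09, 0.45 and 0.91 in HFD mice 1, 2 and 3, and 2.13, 1.25 and 1.54 in PRF 50 mice 3, 9 and 10. All 3 PRF 50 values were above all 6 others, although PRF 50 mouse 9 exceeded ND mouse 6 by little. Ly6c2 has a close paralog, Ly6c1, with which reads can be shared, so its value is uncertain. Ly6c1, looked up after the Ly6c2 values had been seen, was 0.16, 0.15 and 0.16 in the ND mice, 0.33, 0.74 and 1.30 in the HFD mice, and 0.83, 0.42 and 0.48 in the PRF 50 mice. The order of the groups was thus another one for Ly6c1, which was highest in HFD mouse 3. Itgax (chr7:128129547-128150657), the integrin chain CD11c of dendritic cells and of lipid-laden macrophages, was 0.11, 0.18 and 0.05 in the ND mice, 0.20, 0.29 and 0.23 in the HFD mice, and 0.55, 0.17 and 0.39 in the PRF 50 mice. As for Ccr2, the HFD mice lay above the ND mice and PRF 50 mouse 9 lay among the ND mice.

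Trem2 (chr17:48346401-48354147) encodes a lipid-binding receptor that marks the lipid-associated state. It is listed at 0 in ND mouse 6 and was 0.22 and 0.51 in ND mice 7 and 9. In HFD mice 1, 2 and 3 it was 0.94, 0.92 and 0.43, and in PRF 50 mice 3, 9 and 10 it was 1.11, 0.69 and 0.75. The PRF 50 mice lay above the ND mice, and the HFD group overlapped the ND group through HFD mouse 3 alone. Gpnmb (chr6:49036546-49070929), a membrane glycoprotein of macrophages with many lysosomes, is listed at 0 in ND mice 6 and 7 and was 0.06 in ND mouse 9. It was 0.13, 0.16 and 0.21 in the HFD mice, and 0.03 and 0.20 in PRF 50 mice 3 and 9, and it is listed at 0 in PRF 50 mouse 10. All 3 HFD values of Gpnmb were above the ND values, at a level of about 3.7, 5.5 and 10.1 fragments, and the PRF 50 values overlapped those of both groups.

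Spp1 (chr5:104435118-104441050) encodes osteopontin, a secreted protein that binds integrins and Cd44. It was 4.56, 4.68 and 4.77 in ND mice 6, 7 and 9, 4.73, 5.14 and 4.62 in HFD mice 1, 2 and 3, and 5.29, 4.92 and 5.16 in PRF 50 mice 3, 9 and 10. The PRF 50 mice were above the ND mice, and the HFD mice overlapped both groups. Lgals3 (chr14:47367751-47386160) encodes galectin-3, a secreted lectin of macrophages and epithelial cells. It was 1.73, 2.09 and 2.16 in the ND mice, 2.09, 2.09 and 2.43 in the HFD mice, and 3.28, 2.59 and 2.75 in the PRF 50 mice. The PRF 50 values of Lgals3 were above all ND and HFD values, which overlapped each other.

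Cd9 (chr6:125460266-125494791) and Cd63 (chr10:128900989-128912822) encode tetraspanins, membrane proteins that organize other proteins at the cell surface (Cd9) and in late endosomes and lysosomes (Cd63). Cd9 was 4.22, 4.16 and 4.32 in ND mice 6, 7 and 9, 3.26, 3.54 and 2.93 in HFD mice 1, 2 and 3, and 3.84, 4.03 and 3.23 in PRF 50 mice 3, 9 and 10. Cd9 was the only one of the 10 genes whose highest value was in an ND mouse, and every HFD and PRF 50 value was below every ND value. Within the PRF 50 group, mice 3 and 9 were above the HFD mice and mouse 10 was among them. In GENCODE M21, Cd9 has 2 annotated genes on the other strand within its span, and neither has a value above 0 in these tables. Cd63 was 2.31, 2.35 and 2.81 in the ND mice, 2.74, 2.72 and 2.61 in the HFD mice, and 2.63, 2.76 and 2.98 in the PRF 50 mice. For Cd63 no 2 groups were apart.

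**Figure D2:**
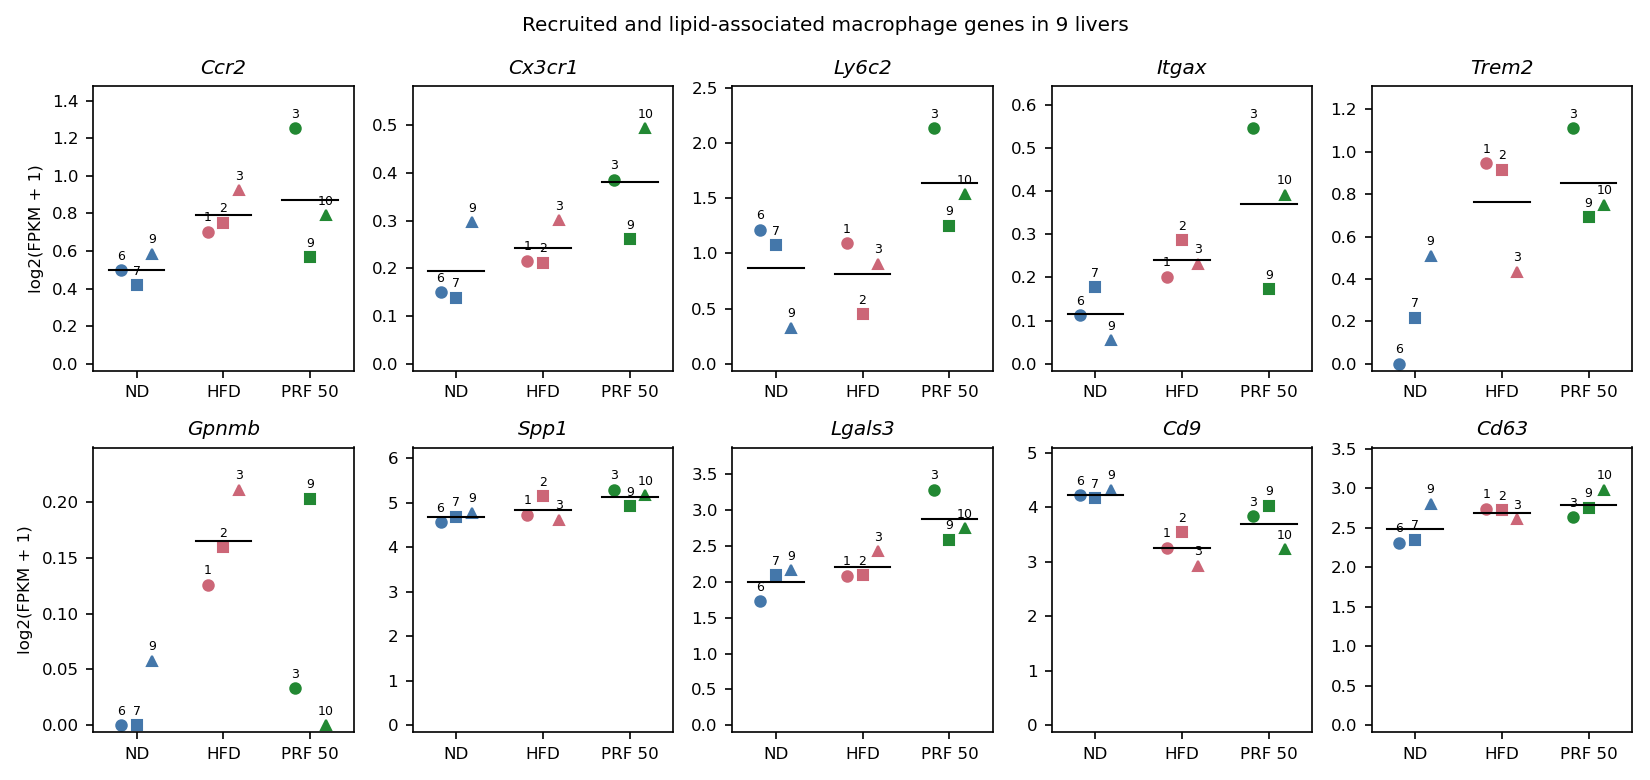
Values of the 10 genes in each liver as log2(FPKM + 1) (vertical axis, each gene on its own scale from 0) by group, with the mouse number at each point and the group mean as a black line where no value is 0. Cd9 was lower in every HFD mouse than in every ND mouse, and Lgals3 and Ly6c2 were higher in every PRF 50 mouse than in every other mouse.

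Among the 10 genes, the livers differed in how often they held an extreme. Extremes over all genes were not counted, so these counts cannot be read as particular to the 10 genes. The highest value was in a PRF 50 mouse for 8 of the 10 genes, in ND mouse 9 for Cd9 and in HFD mouse 3 for Gpnmb. PRF 50 mouse 3 held 6 of the 8, namely Trem2, Spp1, Lgals3, Ccr2, Itgax and Ly6c2, and PRF 50 mouse 10 held those of Cx3cr1 and Cd63. The lowest value was in an ND mouse for 9 genes (shared with PRF 50 mouse 10 for Gpnmb, listed at 0) and in HFD mouse 3 for Cd9. PRF 50 mouse 3 was among the less deep libraries, and ND mouse 6, with a similar depth, held 5 of the lowest values.

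HFD vs. ND asks what the diet alone changed. With the HFD, Cd9 fell by 0.99 on the log2 scale, from 4.23 ± 0.08 to 3.25 ± 0.31 (SD, n = 3 each; standard error of the difference 0.16, 95% interval -1.35 to -0.63, adjusted p = 0.0309 in limma). Of the 10 genes, 4 reached the mean of 1 FPKM over these 6 mice that was required for testing, and 1 of the 4 was called at an adjusted p under 0.05, against 1.33% of the 9978 genes tested. The other tested genes, Cd63, Lgals3 and Spp1, differed by 0.20, 0.21 and 0.16 and were not called (adjusted p = 0.564, 0.573 and 0.669). The call of Cd9 had little margin. It was lost in 7 of 13 other settings, among them all 9 mice in 1 fit (adjusted p = 0.0555), no minimum level (0.0929), and the omission of any 1 of ND mice 6, 7 and 9 (0.0814, 0.107 and 0.0721) or of HFD mouse 1 or 3 (0.0618 and 0.0762), and it was kept without HFD mouse 2 (0.026). The difference itself stayed between -0.83 and -1.14 in these settings.

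The genes too low for that test were fitted together with every gene above 0 in at least 1 of the 6 mice, a fit in which 37 of 16489 genes (0.224%) were called. None of the 10 genes was called there by limma. In the fit with the minimum of 1 FPKM, 1504 of 9978 genes had an unadjusted p under 0.05. For the fit with no minimum the count over all genes is not given here, and 5 of the 10 genes had an unadjusted p under 0.05. Beside Cd9 these were Trem2 (difference 0.52, 95% interval 0.09 to 0.95, adjusted p = 0.335), Ccr2 (0.29, 0.09 to 0.49, adjusted p = 0.268), Gpnmb (0.15, 0.06 to 0.23, adjusted p = 0.19) and Itgax (0.13, 0.02 to 0.23, adjusted p = 0.34), all higher in the HFD group and all at under 1 FPKM. The groups did not overlap for 4 of the 10 genes (Ccr2, Gpnmb and Itgax higher and Cd9 lower with the HFD), against 16.7% of all genes in this fit. Of the 10 differences 8 were above 0, with a median of 0.151 against -0.00141 for all genes. The higher values were those of Ccr2, Gpnmb and Itgax in every HFD liver and of Trem2 in 2 of 3, and none passed the adjusted test. Those of Gpnmb, Itgax and Trem2 rest on few fragments, while Ccr2 had about 39.6, 49.4 and 89.0 in HFD mice 1, 2 and 3. Cx3cr1 differed by 0.05 and Ly6c2 by -0.06, with overlapping groups.

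PRF 50 vs. HFD asks what PRF changed under the same diet. Lgals3 had a mean of 2.20 ± 0.19 with the HFD alone and of 2.87 ± 0.36 with PRF (SD, 3 mice each), a difference of 0.67 (standard error 0.19, 95% interval 0.22 to 1.12, adjusted p = 0.108 in limma). Ly6c2 was 0.82 ± 0.33 and 1.64 ± 0.45, a difference of 0.82 (standard error 0.26, 95% interval 0.22 to 1.43, adjusted p = 0.132 in limma). Neither was called, although in both genes the 3 PRF 50 mice were above the 3 HFD mice. Of the 10 genes 5 were tested and limma called 0, against 3.59% of the 10084 genes tested. An unadjusted p under 0.05 was found for 2 of the 5 and for 2039 of the 10084 genes. Ly6c2 reached the minimum level only through the PRF 50 group. Without PRF 50 mouse 3, the differences were 0.47 for Lgals3 and 0.58 for Ly6c2, and with a pseudocount of 0.1 in place of 1 that of Ly6c2 was 1.40, none of them called.

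For Cd9, which the HFD had lowered, the PRF 50 mean was 3.70 ± 0.42, above the HFD mean by 0.45 with a 95% interval from -0.09 to 0.998 (adjusted p = 0.333 in limma). This interval includes both no difference and a return of the whole distance to the ND mean, and the difference varied from 0.29 without PRF 50 mouse 9 to 0.69 without PRF 50 mouse 10. Spp1 differed by 0.29 (adjusted p = 0.360, between 0.19 and 0.45 without 1 mouse) and Cd63 by 0.10 (adjusted p = 0.668, between 0.004 and 0.18 without 1 mouse). Among the genes below the minimum, Trem2 differed by 0.09, Ccr2 by 0.08, Cx3cr1 by 0.14, Itgax by 0.13 and Gpnmb by -0.09, and each 95% interval included 0. In the fit with no minimum, limma called none of the 10 genes, against 0.762% called of all 16525 genes. An unadjusted p under 0.05 was found there for 2 of the 10 genes. The count over all genes is not given for this fit, and it was 2039 of 10084 with the minimum. The groups were apart for 2 of 10 genes (21% of all genes), and 9 of 10 differences were above 0, with a median of 0.133 against 0.0038 for all genes. For Trem2, Ccr2, Gpnmb and Itgax, whose HFD values exceeded most ND values, each interval of PRF 50 vs. HFD thus included no difference. Those of Ccr2 (-0.36 to 0.51) and Gpnmb (-0.23 to 0.05) also included a return of the whole distance to the ND mean. Those of Trem2 (-0.34 to 0.51) and Itgax (-0.10 to 0.36), which rest on few fragments, did not include such a return.

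PRF 50 vs. ND compares treated mice with mice that never received the HFD, and it shares its mice with the other comparisons. Limma called 0 of the 5 tested genes, against 0.458% of the 10051 genes tested. An unadjusted p under 0.05 was found for 1256 of the 10051 genes and for 4 of the 5. These were Lgals3 (difference 0.88, standard error 0.20, adjusted p = 0.12), Spp1 (0.45, standard error 0.13, adjusted p = 0.191), Ly6c2 (0.77, standard error 0.29, adjusted p = 0.336) and Cd9 (-0.54, standard error 0.20, adjusted p = 0.323), and in all 4 the groups were apart. Here too, Ly6c2 reached the minimum only through the PRF 50 group (means of 0.893 FPKM with the ND and 2.22 FPKM with PRF). In the fit with no minimum, none of the 10 genes was called by limma against 0.0668% of 16463 genes. An unadjusted p under 0.05 was found there for 7 of the 10 genes, and the count over all genes is not given for this fit. Trem2 was among the 7, with a difference of 0.61 (95% interval 0.22 to 0.997, adjusted p = 0.261). The groups were apart for 5 of 10 genes (17.0% of all genes), and 9 of the 10 differences were above 0, with a median of 0.335 against -0.000709 for all genes. A second criterion, an unadjusted p under 0.05 with a fold of FPKM + 1 above 2, was met by none of the 4 or 5 genes tested in each comparison. Of all tested genes it was met by 1.34% in HFD vs. ND, 2.10% in PRF 50 vs. HFD and 1.76% in PRF 50 vs. ND. This count depends on the added 1. With the fold of FPKM means, a choice made after the values were seen, it was met by Cd9 in HFD vs. ND (2.07-fold lower), Ly6c2 in PRF 50 vs. HFD (2.81-fold higher), and Lgals3 and Ly6c2 in PRF 50 vs. ND (2.15-fold and 2.49-fold higher), against 2.22%, 3.82% and 3.03% of all tested genes.

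**Figure D3:**
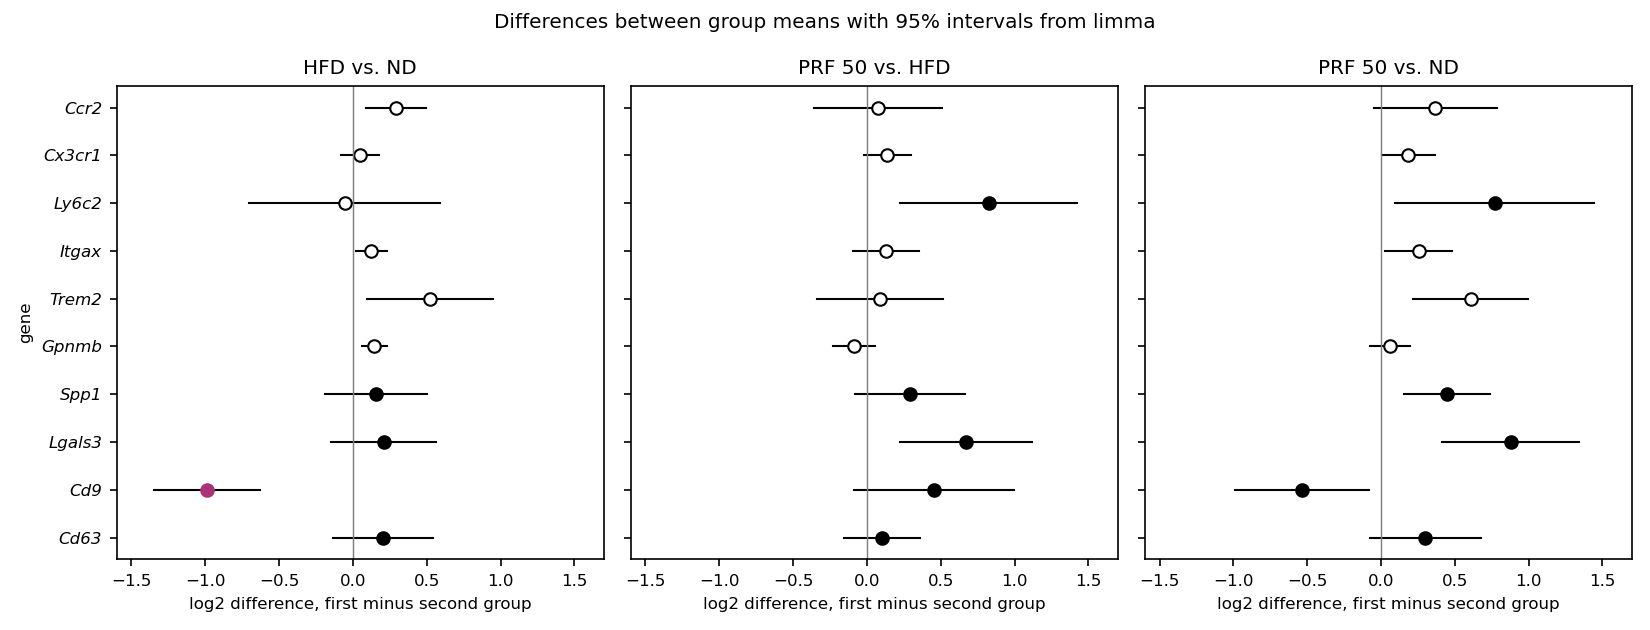
Difference between group means on the log2(FPKM + 1) scale (horizontal axis, first minus second group) with its 95% interval from limma, for the 10 genes in 3 comparisons. Filled points were tested at a mean of at least 1 FPKM, open points come from the fit with no minimum level, and the single purple point (Cd9, HFD vs. ND, -0.99) had an adjusted p under 0.05.

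The partners of these genes were examined as lists. Trem2 signals through the adaptor Tyrobp, which was 3.45, 4.24 and 4.64 in the ND mice, 3.94, 4.71 and 4.48 in the HFD mice, and 5.95, 5.27 and 5.26 in the PRF 50 mice. The PRF 50 mice lay above all others, with a difference of 1.12 from the HFD group (standard error 0.25, adjusted p = 0.059 in limma), whereas Trem2 itself differed by 0.09. Tyrobp also serves other myeloid receptors, and with a mean of 27.6 FPKM it was far more abundant than Trem2. Of the 6 genes for the Trem2 adaptors and signaling, 2 (Tyrobp and Hcst) were tested in PRF 50 vs. HFD and none was called. Hcst reached the minimum only through the PRF 50 group (means of 0.562 FPKM with the HFD and 2.11 FPKM with PRF). Of 7 ligands of Ccr2, Cx3cr1 and the macrophage growth factor receptor, Ccl12 is listed at 0 in all livers, and limma called none of the 3 tested in PRF 50 vs. HFD. Of these, Ccl2 (means of 0.894 FPKM with the HFD and 3.21 FPKM with PRF) and Il34 (0.942 and 1.085 FPKM) reached the minimum only through the PRF 50 group. Ccl2, the main ligand of Ccr2, was 3.25 in PRF 50 mouse 3 and between 0 and 1.15 in the other 8 livers, and PRF 50 mouse 3 was also the liver with the highest Ccr2. Csf1 was the most abundant ligand (mean 2.03 FPKM), with a difference of 0.42 (adjusted p = 0.231).

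Of 15 partners of Spp1, Itgax, Lgals3 and the tetraspanins (integrin chains, Cd44, Lgals3bp, Timp1 and other tetraspanins), 12 were tested in PRF 50 vs. HFD and 2 rose, the osteopontin receptor Cd44 and the leukocyte tetraspanin Cd53. Of all genes tested in that comparison 3.59% were called. Cd44 had a mean of 1.40 ± 0.12 with the HFD alone and of 2.36 ± 0.23 with PRF (SD, 3 mice each; difference 0.95, adjusted p = 0.0229 in limma), and Cd53 was 1.74 ± 0.25 and 2.81 ± 0.36 (difference 1.07, adjusted p = 0.0381). The call of Cd44 was kept in 3 of 6 fits that left out 1 mouse (adjusted p over 13 alternatives 0.0213 to 0.0713) and that of Cd53 in 1 of 6 (0.0326 to 0.116). The tetraspanin Cd81, the most abundant partner (143.6 FPKM), had a difference of -0.42 (adjusted p = 0.0508), and Itgb1, the next, of 0.10 (adjusted p = 0.593). In HFD vs. ND and in PRF 50 vs. ND limma called none of the partners.

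A list of 22 other genes of lipid-associated macrophages had differences in both directions. Of 21 tested in PRF 50 vs. HFD, 1 rose and 3 fell, against 3.59% of all tested genes called. Of these differences 11 were above 0, with a median of 0.000981 against -0.015 for all tested genes. The lysosomal macrophage protein Cd68 rose by 0.99 (adjusted p = 0.0238), while the fatty acid translocase Cd36 fell by 2.31 (adjusted p = 0.0249), the lipid droplet coat protein Plin2 by 1.48 (adjusted p = 0.0294) and the lysosomal acid lipase Lipa by 0.57 (adjusted p = 0.0442), all in limma. Cd36, Plin2 and Lipa are also expressed by hepatocytes. In PRF 50 vs. ND, Cd36 alone fell, by 0.78 (adjusted p = 0.0229). Apoe made up 93.1% of the summed level of this list, which was therefore mostly that of a hepatocyte product. The next gene was Ctsl. Without 1 mouse, the number called in PRF 50 vs. HFD was between 0 and 3. The macrophage elastase Mmp12, whose mean of 0.319 FPKM was below the minimum, was called in the fit with no minimum. It was 0.03, 0.06 and 0.06 in the ND mice, 0.82, 0.75 and 0.88 in the HFD mice, and 0.07, 0.25 and 0.29 in the PRF 50 mice, so the HFD mice were above all others. In that fit Mmp12 rose by 0.77 in HFD vs. ND (adjusted p = 0.00641 in limma), a call kept in 4 of 6 fits without 1 mouse (adjusted p over 9 alternatives 0.00343 to 0.0629). In PRF 50 vs. HFD it fell by 0.61 (adjusted p = 0.0396), a call lost in all 6 fits without 1 mouse (0.00752 to 0.13 over the alternatives), with a difference between -0.658 and -0.546 in these 6 fits and of -1.835 with a pseudocount of 0.1. Trem2 and Gpnmb, also below the minimum, differed by 0.09 and -0.09 in that comparison and were not called. Cd68, Cd36, Plin2 and Lipa lost their calls in PRF 50 vs. HFD in the fit with no minimum (adjusted p = 0.0575, 0.0612, 0.0669 and 0.0759 in limma). Over the 13 alternatives the adjusted p was 0.0227 to 0.0846 for Cd68, 0.000457 to 0.0845 for Cd36, 0.0104 to 0.101 for Plin2 and 0.0355 to 0.152 for Lipa in that comparison, and 0.0242 to 0.279 for Cd36 against ND.

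Markers of other cells were set beside Lgals3 and Ly6c2. The summed level of 17 resident Kupffer cell genes was 261.2, 374.8 and 413.3 FPKM in ND mice 6, 7 and 9, 243.2, 321.9 and 314.9 FPKM in HFD mice 1, 2 and 3, and 848.3, 532.9 and 611.8 FPKM in PRF 50 mice 3, 9 and 10. The PRF 50 mice were above all others. Of 17 tested genes, 11 rose in PRF 50 vs. HFD and none fell, against 3.59% of all tested genes called. The median difference was 1.38 against -0.015 for all tested genes. Spic reached the minimum only through the PRF 50 group (means of 0.68 FPKM with the HFD and 3.53 FPKM with PRF). The list was chosen with earlier results of these data known, so these counts are a description. Timd4 (difference 1.49, adjusted p = 0.015), Cd163 (1.21, adjusted p = 0.015), Vsig4 (1.27, adjusted p = 0.0182) and C1qb (1.45, adjusted p = 0.0237) had the smallest p-values in limma. The most abundant was Cd5l (12.4% of the sum), ahead of Slc40a1, and none of the 17 was at 0 in all livers. Leaving out 1 mouse gave between 0 and 11 calls, no minimum level gave 3, and all 9 mice in 1 fit gave 7. Over the 13 alternatives the adjusted p was 0.00747 to 0.056 for Timd4, 0.0157 to 0.0614 for Cd163, 0.0184 to 0.0592 for Vsig4 and 0.0216 to 0.0723 for C1qb. In HFD vs. ND only Id3 was called in limma, which fell by 1.19 (adjusted p = 0.0116, over the alternatives 0.0105 to 0.0876). Of the 16 genes tested there, 6 had a difference above 0, with a median of -0.0837 against -0.00907 for all tested genes. The fall of Id3 was thus not one of the list as a whole. In PRF 50 vs. ND none was called, though 16 of 17 differences were above 0, with a median of 1.29 against -0.0312 for all tested genes, and 3 were called with all 9 mice in 1 fit. In bulk liver RNA, fewer cells of a type and less RNA per cell cannot be told apart, and the same holds for more of either.

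The monocyte list summed to 898.7, 583.1 and 596.3 FPKM in the ND mice, 581.3, 530.6 and 567.3 FPKM in the HFD mice, and 1015, 825.0 and 770.5 FPKM in the PRF 50 mice. Ifitm3 made up 90.1% of it, followed by Lyz2, and 6 of the 12 genes had means below 1 FPKM. Of 6 tested in PRF 50 vs. HFD, 1 rose, the Fc receptor Fcgr1 (difference 0.81, adjusted p = 0.0414), a gene that reached the minimum only through the PRF 50 group (means of 0.684 FPKM with the HFD and 1.98 FPKM with PRF) and whose call was lost in every fit that left out 1 mouse (0.0374 to 0.121 over the alternatives), and in the other comparisons none was called. The pan-leukocyte list was 34.0, 41.1 and 53.3 FPKM in the ND mice, 36.1, 44.3 and 45.9 FPKM in the HFD mice, and 148.7, 72.2 and 74.5 FPKM in the PRF 50 mice. Of its 6 genes 2 rose in PRF 50 vs. HFD, Fcer1g (difference 1.12, adjusted p = 0.0321) and Laptm5 (1.10, adjusted p = 0.037), and between 0 and 1 without 1 mouse (0.0311 to 0.0957 for Fcer1g and 0.0349 to 0.103 for Laptm5 over the alternatives). In that comparison 3.59% of all tested genes were called, the share to set beside the monocyte and pan-leukocyte counts. Cd52 made up 30.8% of the sum and no gene was at 0 in all livers. The neutrophil list, led by S100a8 (50.9% of the sum) and S100a9, was 55.7 and 19.1 FPKM in PRF 50 mice 3 and 9, 3.15 FPKM in PRF 50 mouse 10, and between 2.53 and 8.99 FPKM in the ND and HFD mice. The neutrophil genes were thus high in the liver with the highest Ly6c2 and Lgals3, and low in PRF 50 mouse 10, where Ly6c2 and Lgals3 were also above the ND and HFD mice. The part of these cells in the values of Lgals3 and Ly6c2 was not tested.

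For the abundant genes Spp1, Cd9 and Cd63, markers of platelets and other cells were set beside the result. Bile duct cells, a known source of these proteins, are not among the lists reported. The platelet list, led by Pf4 (51.2% of the sum) and Ppbp, was 2.66, 1.80 and 1.47 FPKM in ND mice 6, 7 and 9, 2.75, 3.22 and 2.47 FPKM in HFD mice 1, 2 and 3, and 3.83, 2.07 and 4.67 FPKM in PRF 50 mice 3, 9 and 10. Limma called none of its tested genes in any comparison. The part of platelets in the values of Spp1, Cd9 and Cd63 was not tested. The sinusoidal endothelial list, led by Clec4g and Pecam1, averaged 51.8 FPKM with the ND, 33.9 FPKM with the HFD and 46.0 FPKM with PRF 50, and the lymphocyte list, led by Nkg7 and Cd79a, averaged 4.03, 1.63 and 3.39 FPKM. The summed means of both lists had the order of those of Cd9, but Clec4g made up 69.4% of the endothelial sum and 3 of the 5 endothelial genes had another order. The endothelial sum was 14.92, 36.05 and 50.8 FPKM in HFD mice 1, 2 and 3, of which mice 1 and 2 were below all ND mice (38.22 to 65.26 FPKM). The lymphocyte sum was lower in the 3 HFD mice (1.536 to 1.673 FPKM) than in all 6 others (2.185 to 5.582 FPKM). No gene of the lymphocyte list reached the minimum for testing, limma called none of the 5 endothelial genes, and their part in the fall of Cd9 was not tested. The stellate cell list, led by Dcn and Col3a1, had group means of 79.2, 92.3 and 100.3 FPKM, the dendritic cell list, led by Zbtb46 and Clec9a, of 1.47, 1.23 and 1.59 FPKM. No stellate cell gene was called. In HFD vs. ND, however, all 6 stellate cell differences were above 0 (median 0.317), and 1 gene was called with all 9 mice in 1 fit. Dcn made up 85.3% of the stellate cell sum. No dendritic cell gene reached the minimum for testing.

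**Figure D4:**
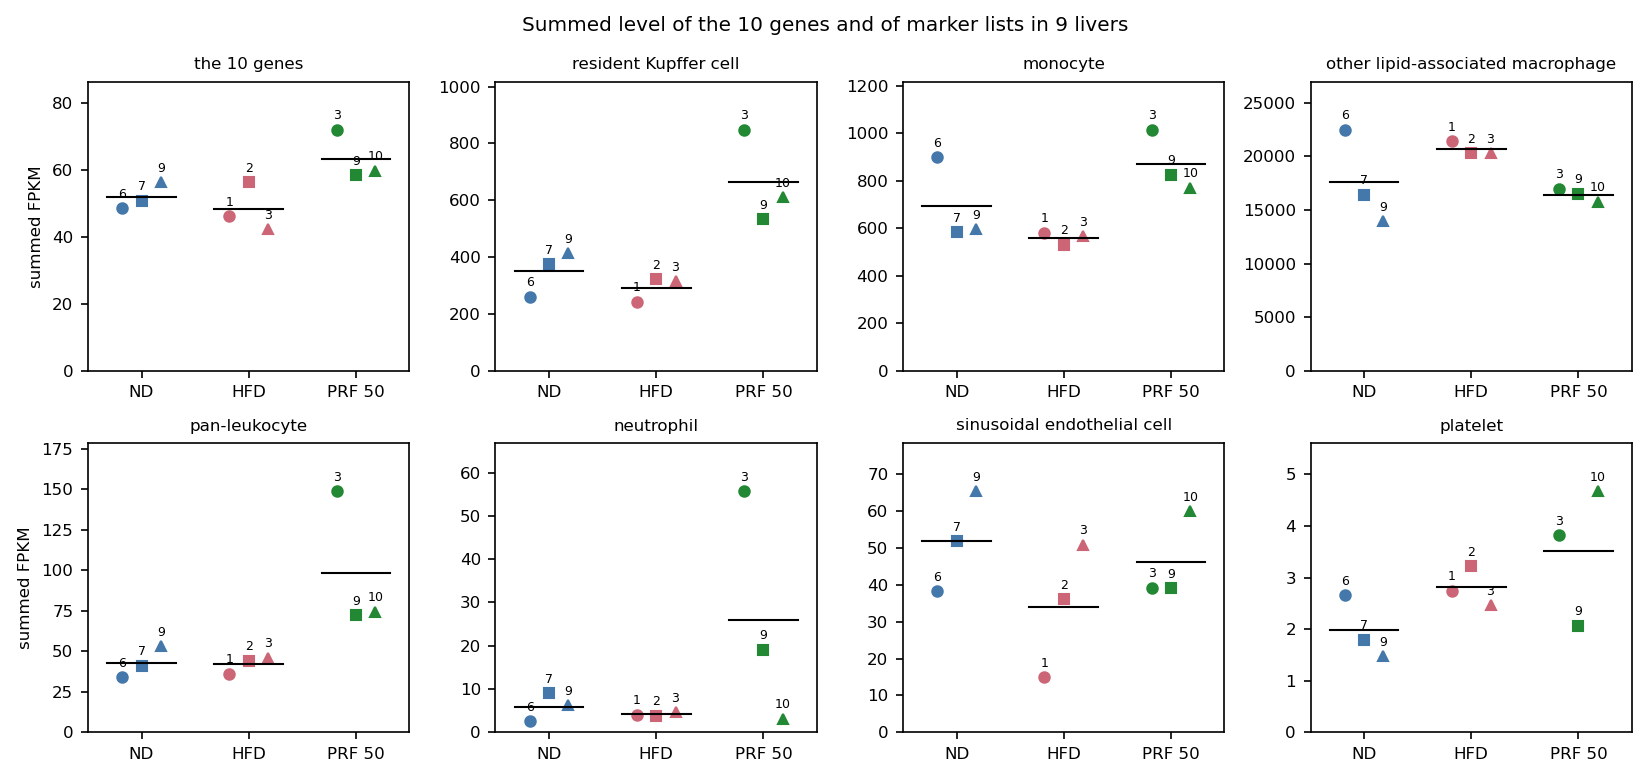
Summed FPKM (vertical axis from 0) of the 10 genes and of 7 marker lists in each liver by group, with the mouse number at each point and the group mean as a black line. The resident Kupffer cell list was 532.9 to 848.3 FPKM in the PRF 50 mice and at most 413.3 FPKM in the others, and the neutrophil list reached 55.7 FPKM in PRF 50 mouse 3.

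For the 5 most abundant of the genes, the gene with the most similar profile was sought among 10047 other genes, all averaging 1 FPKM or more in the 9 livers. Lgals3 was closest to Cmklr1, a chemoattractant receptor of myeloid cells, with a Pearson r of 0.983 and a Spearman rho of 1.0 over the 9 log2 values. The second gene for Lgals3, Cd300e, had the same r at these digits (0.983). Cd9 was closest to the transcription factor gene Max (r = 0.971, rho = 0.983). For Spp1 the closest was Vrk2 (r = 0.963, rho = 0.883), for Ly6c2 Ninj1 (r = 0.960, rho = 0.883) and for Cd63 Zfp955a (r = 0.952, rho = 0.917). Without the 2 livers farthest from the median of the first gene, r over the remaining 7 was 0.936, 0.952, 0.918, 0.878 and 0.915 for the pairs of Lgals3, Cd9, Spp1, Ly6c2 and Cd63. Each pair was picked as the highest of 10047, so no p-value is given and the pairs are a description. The mean of Cmklr1 lay at the minimum itself.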

How the data were processed

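The authors trimmed and mapped the reads (TopHat, mm10), estimated FPKM with Cufflinks, normalized between samples by a geometric method and deposited 1 log2 value per gene symbol and mouse. The pseudocount of 1 was inferred from the lowest value of 0, and strand use in counting is not given in the sources used here.

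Each comparison was fitted with limma 3.58.1 in R 4.3.3 (lmFit, eBayes with a trend) on its 6 mice, for genes averaging 1 FPKM or more. Adjusted p-values are Benjamini-Hochberg values over all genes tested, and a call is an adjusted p under 0.05. Tables were made with Python 3.11.15, pandas 2.3.3 and numpy 2.4.6. Alternatives changed 1 choice at a time: mice, pseudocount (0.1), minimum (none or 0.3 FPKM), scaling, trend or calling rule. The value of 1 fragment was read from 3076 genes with a single transcript of at least 1000 bases. Positions and lengths are from GENCODE M21, where 95.4% of symbols matched 1 gene.

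Genes named are the 10 members, the 2 most abundant of each list and up to 4 called ones with the smallest p, the look-alikes of 5 members, and, outside this rule, Alb, Ccl12, Mmp12 and the paralog Ly6c1, added after their values were seen. Not every gene and list that meets this rule is reported. The members and lists were chosen with earlier results of these data known.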

Additional observations from a re-analysis of the deposited data

How the results depend on the processing

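No paired analysis was possible because the mouse numbers pair no animals between groups. In PRF 50 vs. HFD and PRF 50 vs. ND, 0 of the 10 genes were called at an adjusted p under 0.05 by limma in every setting tried. In HFD vs. ND the 1 called gene, Cd9, became 0 with all 9 mice in 1 fit, with no minimum level and with an unadjusted p and a fold of FPKM + 1 above 2, though Cd9 met that rule with the fold of FPKM means, and the count was 0 to 1 when 1 mouse was left out. The difference of Spp1 in HFD vs. ND turned to -0.00102 without HFD mouse 2 and was 0.264 without HFD mouse 3. Over all genes, PRF 50 vs. HFD had 362 calls (144 higher, 218 lower), 126 with no minimum, 212 with an unadjusted p and a fold of FPKM + 1 above 2 (385 with the fold of FPKM means), and 15 to 242 when 1 mouse was left out. HFD vs. ND had 133 calls, 37 with no minimum, 222 with an unadjusted p and a fold of FPKM means above 2, and 35 to 140 when 1 mouse was left out. PRF 50 vs. ND had 46 calls, 107 with all 9 mice in 1 fit, 11 with no minimum, 177 with an unadjusted p and a fold of FPKM + 1 above 2 (305 with the fold of FPKM means), and 4 to 71 when 1 mouse was left out. With no minimum more genes are tested, and with 1 mouse less the fit has fewer samples. For the other settings the cause was not tested. Other scalings moved the median difference of all genes by at most 0.015. The values of Trem2, Gpnmb, Cx3cr1, Itgax and Ly6c2 rest on few fragments, so changes of these genes could have been missed. The alternatives for the marker lists were added later than those for the 10 genes.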
